A study of Mus musculus with 15 samples.

Results

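The genes of the p53 pathway were followed in mouse embryonic stem cells (ESCs) depleted of TET1 or TET2. The set comprised 36 genes, taken by name out of the 26061 genes of the deposited expression table, and all 36 were among the 19490 genes with enough signal to be tested. By role, 7 were feedback and core genes, 9 were arrest and growth control genes, 12 were apoptosis genes and 8 were repair and metabolism genes. The cells were E14, an ESC line of 129/Ola background grown without feeders in serum and LIF, and all 15 libraries came from cells transduced with a lentiviral short hairpin RNA (shRNA) and kept in puromycin for 3 days. The groups held 5 libraries each, with a non-targeting hairpin (shScr), a hairpin against Tet1 (shTet1) or a hairpin against Tet2 (shTet2). Each gene was targeted by a single hairpin in a single cell line, so that an effect of the hairpin sequence and an effect of the loss of the protein cannot be told apart. Total RNA was depleted of rRNA and sequenced as directional libraries. The question asked here of the shTet1 and shTet2 libraries was whether the RNA levels of the p53 pathway differed from those of shScr, and whether they differed between shTet1 and shTet2.

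The transcription factor p53, encoded by Trp53, is held in check by the ubiquitin ligase Mdm2 and its relative Mdm4, and is released from them after DNA damage and other stresses. It then binds a response element composed of a pair of decamers and raises the transcription of genes for cell cycle arrest, apoptosis and DNA repair, and that of Mdm2 itself, which closes a negative feedback loop. Much of the control of p53 acts on the protein, so that its RNA level need not follow its activity. ESCs are known for abundant p53 and for a cell cycle with little of the inhibitor p21, encoded by Cdkn1a.

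The response element is the feature by which p53 recognises its targets, and the mm9 genome was therefore searched on both strands for the p53 consensus site, 20 bases formed by 2 decamers without a spacer, within 2500 bases on either side of the start of each gene model. Allowing 1 mismatch outside the fixed C and G of each decamer, 172 of 22213 genes (0.774%) held a match, and so did 6 of the 36 pathway genes (16.7%). The matches shown lie upstream of the gene or in an intron, and belong to Ccng1, which had the highest RNA level per length of the 36 genes, to Cdkn1a, the textbook target, to Rps27l and to Zmat3. They are printed 5′ to 3′ on the strand of the gene, with the 20 matched bases in capitals. The upstream match of Ccng1 was at chr11:40568964-40568983 and its intronic match at chr11:40568438-40568457, with the gene on the minus strand. The match of Cdkn1a was at chr17:29227873-29227892 on the plus strand, at -51 bases from the start of the gene model, and that of Rps27l was in an intron at chr9:66794103-66794122 on the plus strand. The match of Zmat3, in an intron at chr3:32263253-32263272 on the minus strand, had 0 mismatches, whereas each of the others had 1.
Ccng1, upstream: aggccAGACCTGCCCGGGCAAGCCTtggca
Ccng1, intron: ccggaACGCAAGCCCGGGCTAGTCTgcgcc
Cdkn1a, upstream: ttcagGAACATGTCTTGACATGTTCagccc
Rps27l, intron: atggcGGGCTTGTTGAGACTTGTCCgggcg
Zmat3, intron: gtgagAAACAAGCCCAGGCATGTCTtggga

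The remaining matches, in Gdf15 and Gtse1, fell in untranslated exon sequence. A match describes letters only, and binding of p53 was not measured here. A single decamer, which is far more common, was found in 2582 of 27025 RefSeq promoters (9.55%; GRCm38.p6, 250 bases before to 50 bases after the gene start) and in 13 of the 28 promoters matched to the pathway genes (46.4%), among them those of Mdm2, Ccng1, Cdkn1a, Ckap2 and Sesn1.

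Levels of single genes below are the deposited variance-stabilised values unless given as reads, and differences are differences of these log2 values. The deposited values approach log2 of the normalised reads for genes with many reads. Summed levels of markers are on another scale, log2 of the summed normalised reads. Each library held between 15258291 and 35432425 reads in genes. Tet1 lay between 11.9 and 12.4 in shTet1 and between 13.7 and 14.2 in shScr (27.8% of the normalised reads of shScr; adjusted p = 0.000228, limma with Benjamini-Hochberg adjustment), and Tet2 lay between 11.1 and 11.6 in shTet2 and between 13.2 and 13.5 in shScr (26.6%; adjusted p = 3.67e-07). Summed levels of 10 ESC markers ran from 16.66 to 16.92 in shScr, from 16.82 to 17.13 in shTet1 and from 16.51 to 16.80 in shTet2, without overlap between shTet1 and shTet2. Those of 8 fibroblast markers lay between 6.78 and 8.30 in every library, with Lum at 0 throughout. The summed level of 9 primitive endoderm markers ran from 11.9 to 12.7 in shScr, from 11.8 to 12.2 in shTet1 and from 11.4 to 12.1 in shTet2, with overlap between the groups. The library shScr-2 was the highest of its group in 19 of the 36 pathway genes (52.8%, against 22.8% of all genes), and shScr-5 was the lowest in 19. Calls and medians that changed without either of these libraries are given both ways.

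In the control cells the pathway genes spanned a wide range of levels. On the scale of normalised reads per kb of exon, the highest in shScr was Ccng1 (cyclin G1, a p53 target that acts back on Mdm2) at 5459, followed by Rps27l, a ribosomal protein paralogue induced by p53, at 3208, Trp53inp1, a stress protein that assists p53, at 2424, and Ckap2, a protein of the mitotic spindle, at 2264. The inhibitors Mdm4 and Mdm2 stood at 1745 and 1456, whereas Trp53 itself, at 379, ranked 19 of 36. Cdkn1a stood at 35.2 and ranked 33, above only the cytokine gene Gdf15 (19.3), the death receptor gene Fas (16.4) and the autophagy gene Dram1 (15.1). Of the 7 feedback and core genes, 5 were among the 7 highest, whereas Trp53 and Pml, at 214, were not.

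**Figure D1:**
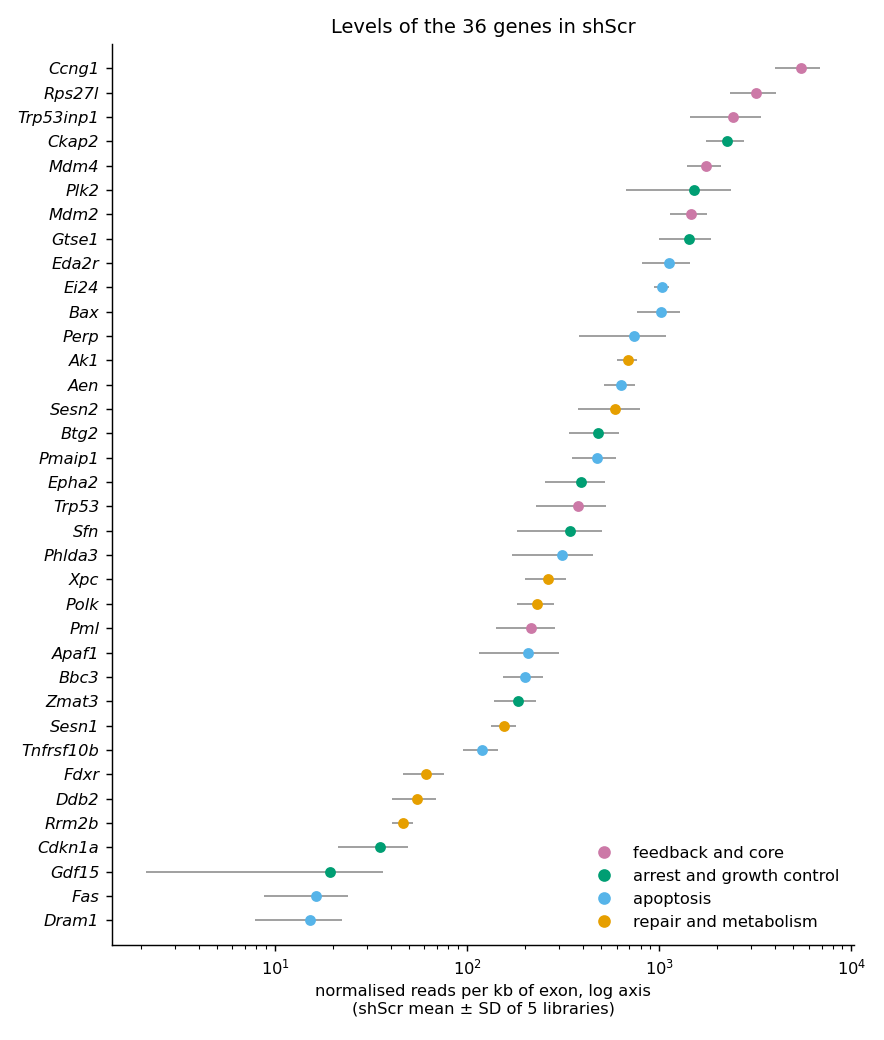
RNA level of the 36 p53 pathway genes in shScr, as normalised reads per kb of exon on a log axis, with points for the mean of 5 libraries, bars for the SD and colours for the role. Ccng1 is at the top with 5459 and Dram1 at the bottom with 15.1, and Cdkn1a, at 35.2, is the fourth from the bottom.

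In shTet1, a group of pathway genes lay below shScr, with Ccng1, Mdm2, Plk2, Eda2r and Trp53inp1 the most so, while Trp53 and Cdkn1a lay at 0.15 and 0.07 and passed no test. In RNA of whole cultures, fewer cells that use a gene and less of its RNA per cell cannot be told apart. Of the 36 genes, 24 had a difference below 0, against 47.6% of all genes tested, and the median difference was -0.22 against 0.01 for all genes. That median was -0.12 without shScr-2 and -0.33 without shScr-5. With the group as the only term of the limma fit, 0 of 36 passed an adjusted p of 0.05 (0.0718% of all genes did), 11 were lower at an unadjusted p under 0.05 (5.23% of all genes) and 0 were higher at that level (6.55%). A limma fit to the recovered reads with precision weights (voom) called 1 of the 36, Ccng1, and 17 of all 19490 genes. It placed 11 of the 36 at an unadjusted p under 0.05, a level at which all genes were not counted for this fit. Libraries of shTet1 and shScr with the same replicate number deviated together, as described with the processing, and with the replicate number as a block 7 of 36 were called lower (2.26% of all genes) and 0 higher (2.54%). These were Mdm2, Ccng1, Trp53inp1, Gtse1, Plk2, Eda2r and Sesn2, and each was lower in 5 of 5 same-numbered pairs. With each replicate number left out in turn, the blocked count was 2, 2, 7, 1 and 9 without numbers 1, 2, 3, 4 and 5. Over all genes the count was 935 with every number and 167, 123, 886, 62 and 920 in the same order. The calls thus fell without numbers 1, 2 and 4 among all genes as well as among the 36. The unblocked count was 0 without shScr-2 and 1, Ccng1, without shScr-5. Groups that did not overlap were seen for 2 of 36 genes, Mdm2 and Ccng1 (1.11% of all genes, lower in shTet1). By role, the differences below 0 numbered 5 of 7 feedback genes, 7 of 9 arrest genes, 9 of 12 apoptosis genes and 3 of 8 repair genes, with median differences of -0.20, -0.32, -0.28 and 0.05. ESC markers lay above 0 in 9 of 10 cases in the same comparison, with a median difference of 0.26, and all 9 primitive endoderm markers lay below 0, with a median of -0.24. None of these markers was called in either fit, and their part in the differences of the pathway genes was not tested.

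**Figure D2:**
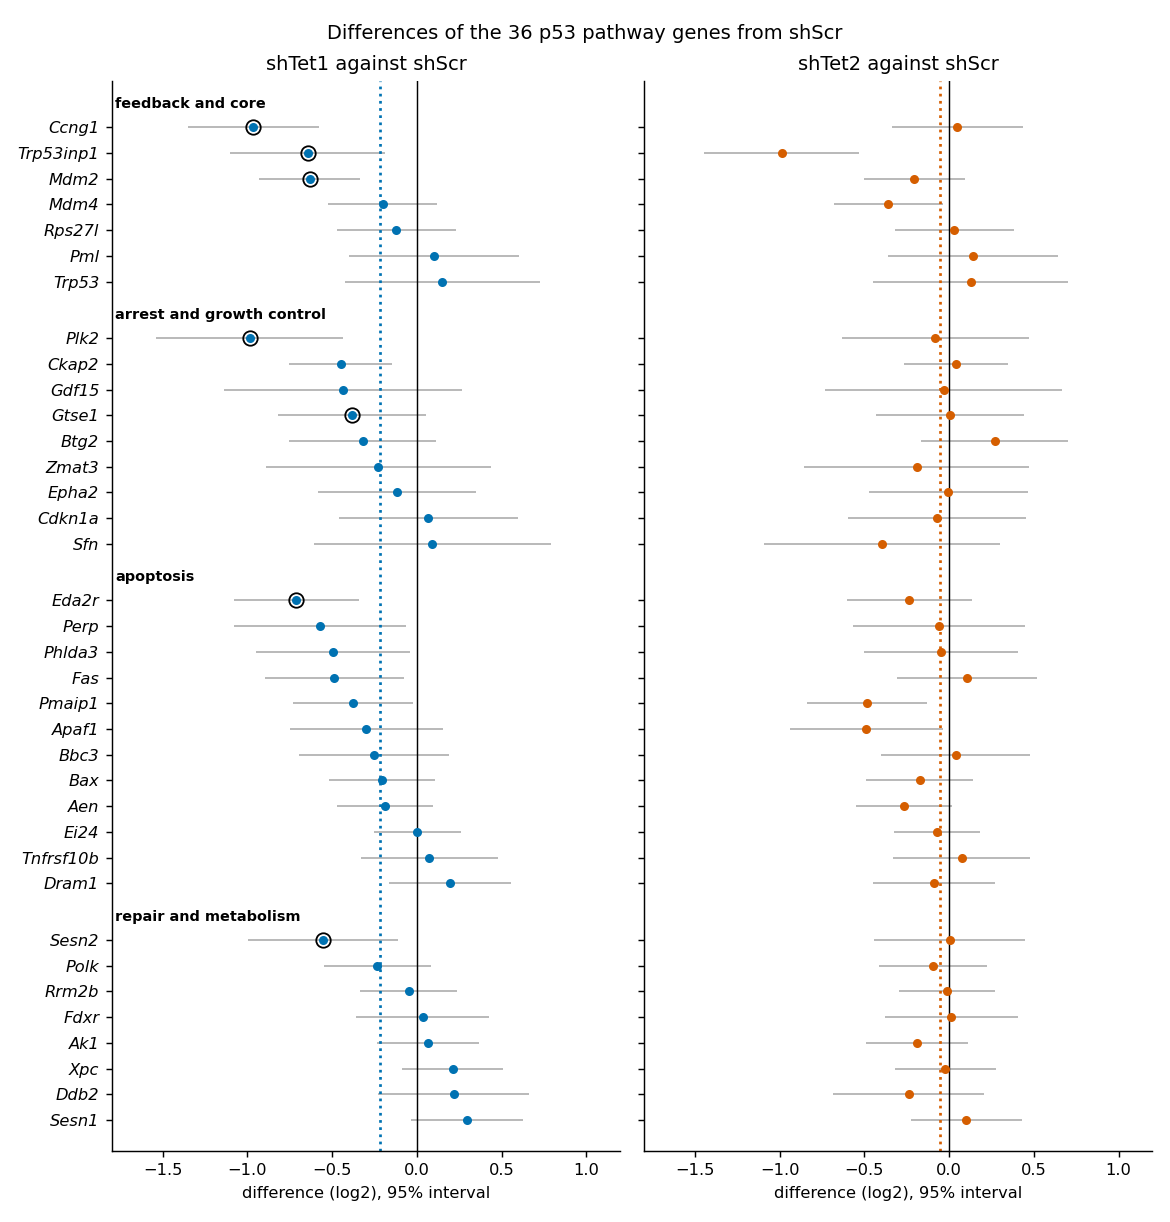
Differences of log2 level between shTet1 and shScr and between shTet2 and shScr for the 36 p53 pathway genes, grouped by role, with points for the estimate, bars for the 95% interval of the fit without the replicate block, rings for the 7 genes called with the block in shTet1 and a dotted line at the median of the 36 genes. The medians lie at -0.22 for shTet1 and -0.05 for shTet2, and Ccng1 lies at -0.96 in shTet1 and at 0.05 in shTet2.

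Among the feedback and core genes, Trp53 measured 11.15, 9.51, 10.59, 10.34 and 10.98 in shScr-1 to shScr-5, and 10.95, 9.91, 10.88, 10.61 and 10.98 in shTet1-1 to shTet1-5. The groups overlapped over nearly their whole range, and shScr-2 was the lowest library. The difference was 0.15 ± 0.27 (SE, n = 5), with a 95% interval from -0.43 to 0.73 (adjusted p = 0.898, exact permutation p = 0.675). A level lower by more than 0.43 was therefore outside the interval, and without shScr-2 the difference was -0.10.

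Mdm2, the main ubiquitin ligase for p53 and itself a target of it, measured 12.92, 13.28, 12.77, 12.71 and 12.47 in shScr and 12.04, 12.24, 12.46, 12.07 and 12.18 in shTet1. The groups did not overlap, although shTet1-3 at 12.46 and shScr-5 at 12.47 nearly met. The difference was -0.63 ± 0.14 (SE, n = 5), with an interval from -0.93 to -0.33, and the normalised reads were 63.6% of those of shScr. The exact permutation test gave the smallest p that 5 against 5 libraries allow, 0.00794. Over all genes the adjusted p was 0.0792 without the block and 0.00668 with it, within a range of 0.00668 to 0.235 over 25 alternative fits. The blocked adjusted p was 0.0507 without number 2 and 0.0594 without number 4.

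For Ccng1 the gap between the groups was wider. Its levels were 14.01, 14.74, 14.35, 14.03 and 13.84 in shScr and 12.78, 13.20, 13.60, 12.94 and 13.62 in shTet1, so that every shTet1 library lay below every shScr library. The difference was -0.96 ± 0.18 (SE, n = 5), with an interval from -1.35 to -0.58, and shTet1 held 51.2% of the normalised reads of shScr. The adjusted p was 0.0527 without the block and 0.00341 with it (limma, Benjamini-Hochberg), and the exact permutation p was 0.00794. With the block the call held without each of the 5 replicate numbers, with adjusted p from 0.00216 to 0.0488. Without the block, leaving out shScr-5 gave -1.05 (adjusted p = 0.0452), leaving out shTet1-5 gave -1.06 (0.0190), and leaving out shScr-2 gave -0.83 (0.130), within a range of 0.00216 to 0.166 over 25 alternative fits.

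Trp53inp1 measured 13.84, 14.65, 13.94, 13.80 and 12.99 in shScr and 13.15, 13.43, 13.38, 13.05 and 12.99 in shTet1. The groups met at their lowest values, as shScr-5 equalled the lowest shTet1 library to 2 decimals. The difference was -0.65 ± 0.22 (SE, n = 5; exact permutation p = 0.0476), with an adjusted p of 0.222 without the block and 0.0223 with it, within a range of 0.00673 to 0.437. The blocked adjusted p was 0.0876, 0.124 and 0.119 without numbers 1, 2 and 4. Of the remaining feedback genes, Mdm4 differed by -0.20 ± 0.15 (adjusted p = 0.674), Pml, which organises nuclear bodies that recruit p53, by 0.10 ± 0.24 (0.924), and Rps27l by -0.12 ± 0.17 (0.852). Of the feedback genes, Mdm2, Ccng1 and Trp53inp1 were thus called lower in the blocked fit, and the other 4 were not called in either fit. Whether the 7 genes differed from each other in their response was not tested.

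**Figure D3:**
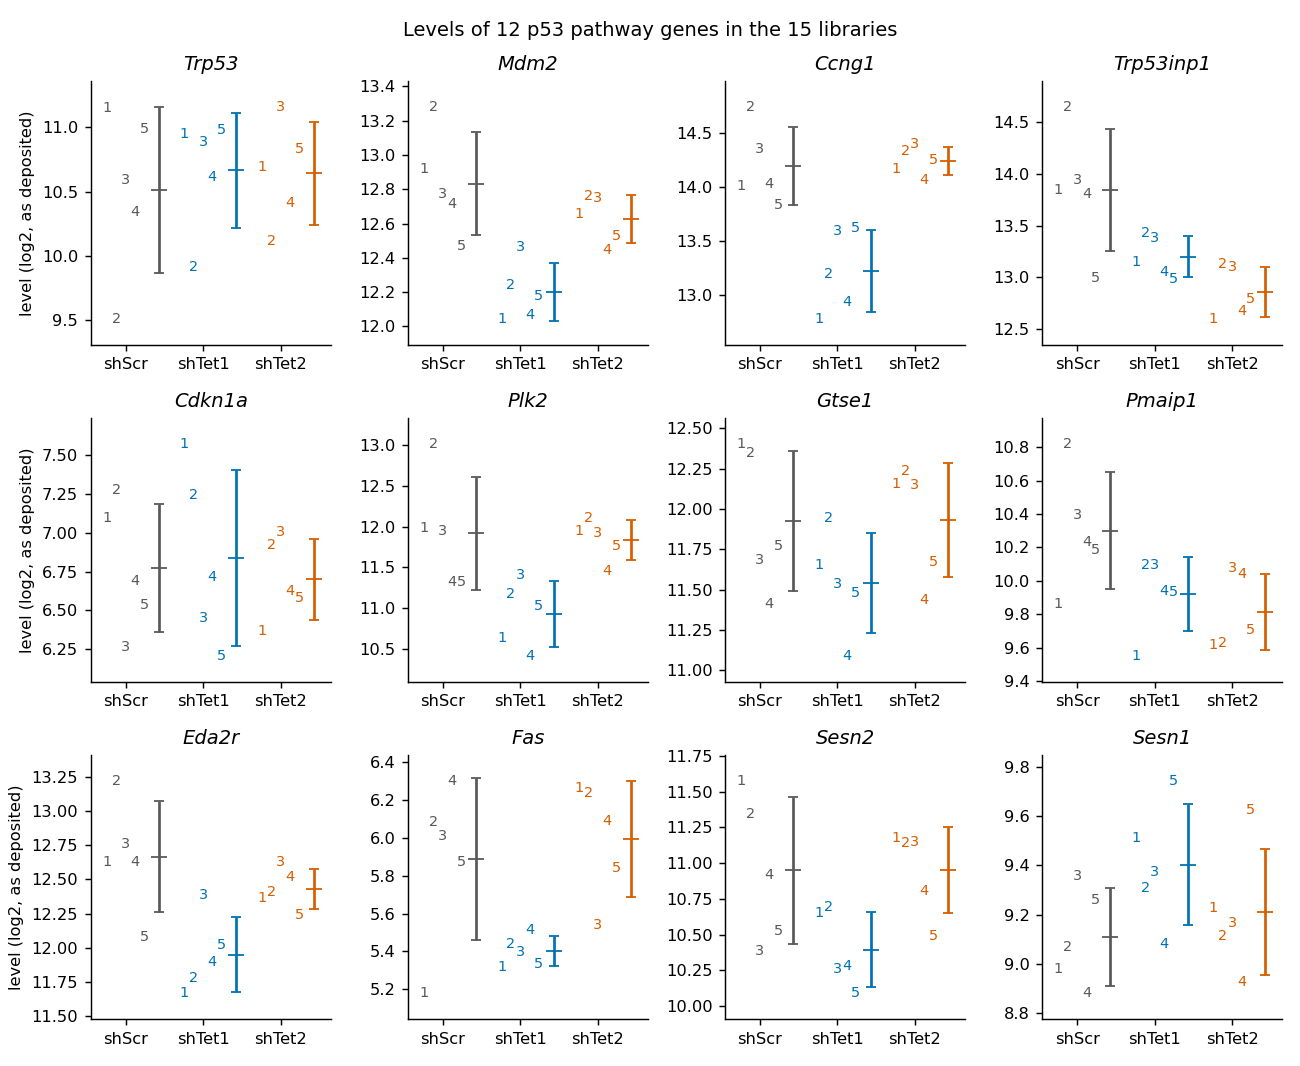
Log2 levels of 12 p53 pathway genes in each of the 15 libraries, with digits for the replicate number and bars for the group mean ± SD of 5 libraries. For Ccng1 every shTet1 library (12.78 to 13.62) lies below every shScr (13.84 to 14.74) and shTet2 (14.07 to 14.39) library, whereas for Cdkn1a the 3 groups overlap.

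Among the genes for arrest and growth control, Cdkn1a, which encodes the cyclin-dependent kinase inhibitor p21, measured 7.09, 7.27, 6.26, 6.69 and 6.53 in shScr and 7.58, 7.25, 6.45, 6.71 and 6.20 in shTet1. The highest and the lowest of these 10 libraries were both shTet1 libraries. The difference was 0.07 ± 0.25 (SE, n = 5), with an interval from -0.46 to 0.59 (adjusted p = 0.958, exact permutation p = 0.841). A difference of the size found for Ccng1 lay outside this interval, and one of the size found for Gtse1 lay inside it. The level of Cdkn1a rested on 36 to 212 reads per library.

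Plk2, a polo-like kinase induced by p53, had the largest difference of the 36 genes on the deposited values. It measured 11.98, 13.02, 11.95, 11.33 and 11.32 in shScr and 10.63, 11.17, 11.40, 10.41 and 11.03 in shTet1. Only shTet1-3 reached the range of shScr, and shScr-2 stood above all others. The difference was -0.99 ± 0.26 (SE, n = 5; exact permutation p = 0.0238), and the normalised reads were 46.6% of those of shScr. The adjusted p was 0.125 without the block and 0.00711 with it, within a range of 0.00696 to 0.312. Without number 1 or number 4 the blocked adjusted p was 0.0502 and 0.0579, and without shScr-2 the unblocked difference was -0.71.

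Gtse1, whose product is bound to microtubules and lowers p53, measured 12.40, 12.34, 11.68, 11.41 and 11.77 in shScr and 11.65, 11.95, 11.53, 11.09 and 11.48 in shTet1. The groups overlapped, but within each replicate number shTet1 was the lower. The difference was -0.38 ± 0.21 (SE, n = 5; exact permutation p = 0.159), with an adjusted p of 0.503 without the block and 0.0478 with it, within a range of 0.0286 to 0.759. The blocked adjusted p was 0.210, 0.167, 0.155 and 0.0757 without numbers 1, 2, 4 and 5, so that this call rested on 4 of the 5 numbers. Ckap2 measured 12.29, 12.97, 12.58, 12.51 and 12.18 in shScr and 11.80, 12.04, 12.30, 11.87 and 12.28 in shTet1, with a difference of -0.45 ± 0.15 that passed in neither fit (adjusted p = 0.202, and 0.0504 with the block), while without number 5 the blocked adjusted p was 0.0210, within a range of 0.0210 to 0.468. The antiproliferative gene Btg2, at 10.59, 10.82, 10.51, 10.10 and 9.73 in shScr, differed by -0.32 ± 0.21, Gdf15 by -0.43 ± 0.33, Zmat3, an RNA-binding protein induced by p53, by -0.23 ± 0.32, the receptor kinase gene Epha2 by -0.12 ± 0.22 and Sfn, a cell cycle inhibitor of the 14-3-3 family, by 0.09 ± 0.33, none of which passed in either fit.

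Among the apoptosis genes, only Eda2r, a receptor for ectodysplasin of the tumour necrosis factor receptor family, was called. It measured 12.63, 13.22, 12.76, 12.63 and 12.08 in shScr and 11.67, 11.78, 12.39, 11.90 and 12.02 in shTet1. The groups overlapped through shScr-5 and shTet1-3 alone. The difference was -0.71 ± 0.18 (SE, n = 5; exact permutation p = 0.0159), and shTet1 held 59.8% of the normalised reads of shScr. The adjusted p was 0.104 without the block and 0.0144 with it, within a range of 0.00879 to 0.284. Without numbers 1, 2 and 4 the blocked adjusted p was 0.0788, 0.0814 and 0.0884.

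The other apoptosis genes formed a graded series without calls. Fas measured 5.18, 6.08, 6.01, 6.30 and 5.87 in shScr and 5.32, 5.44, 5.40, 5.51 and 5.33 in shTet1, where 4 of the 5 shScr libraries stood above all shTet1 libraries. Its difference was -0.49 ± 0.20 (SE, n = 5; adjusted p = 0.321, and 0.131 with the block; exact permutation p = 0.0476), on only 8 to 62 reads per library. On this scale the difference of a gene with so few reads is understated, and its normalised reads were 43.6% of those of shScr. Perp, a membrane protein of p53-dependent death, differed by -0.57 ± 0.24 (adjusted p = 0.354, and 0.0632 with the block), and Phlda3, an inhibitor of Akt, by -0.49 ± 0.22 (0.374, and 0.0600 with the block), and with a library left out these ran up to -0.34 and -0.28. The BH3-only gene Pmaip1 (Noxa) measured 9.86, 10.82, 10.39, 10.23 and 10.19 in shScr and 9.55, 10.09, 10.09, 9.94 and 9.93 in shTet1, and differed by -0.38 ± 0.17 (0.389, and 0.0931 with the block). Smaller differences below 0 were found for the caspase activator Apaf1 (-0.30 ± 0.22, and up to -0.07 with a library left out), the BH3-only gene Bbc3 (Puma; -0.25 ± 0.21), the pore-forming gene Bax (-0.20 ± 0.15) and the nuclease gene Aen (-0.19 ± 0.14). The endoplasmic reticulum gene Ei24, the TRAIL receptor gene Tnfrsf10b and Dram1 lay at 0.0031 ± 0.12, 0.07 ± 0.19 and 0.19 ± 0.17.

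Of the repair and metabolism genes 5 of 8 lay above 0, and Sesn2, Polk and Rrm2b lay below it. Sesn2, which lowers mTORC1 signalling and oxidative stress, measured 11.58, 11.34, 10.38, 10.92 and 10.52 in shScr and 10.65, 10.69, 10.26, 10.28 and 10.09 in shTet1. Its groups overlapped, and shTet1 was the lower within every replicate number. The difference was -0.55 ± 0.21 (SE, n = 5; exact permutation p = 0.0873), with an adjusted p of 0.291 without the block and 0.0266 with it, within a range of 0.00745 to 0.547. The blocked adjusted p was 0.128, 0.123 and 0.130 without numbers 1, 2 and 4. Its paralogue Sesn1 went the other way, with 8.98, 9.07, 9.36, 8.88 and 9.26 in shScr and 9.51, 9.31, 9.37, 9.08 and 9.74 in shTet1. It was higher in 5 of 5 pairs, but the difference of 0.29 ± 0.16 passed in neither fit (adjusted p = 0.486, and 0.114 with the block; exact permutation p = 0.0635). The damage recognition genes Xpc and Ddb2 lay at 0.21 ± 0.14 and 0.22 ± 0.21, the translesion polymerase gene Polk at -0.23 ± 0.15, the ribonucleotide reductase gene Rrm2b at -0.05 ± 0.14, the adenylate kinase gene Ak1 (10.91, 10.97, 11.17, 10.87 and 10.71 in shScr, and 10.46, 11.14, 11.27, 11.09 and 10.99 in shTet1) at 0.07 ± 0.14 and the ferredoxin reductase gene Fdxr at 0.03 ± 0.19. For Ddb2, 23.8% of the exon bases overlapped Acp2 on the opposite strand, and as the use of strand in the counting is not given in the sources used here, its reads are uncertain in their assignment.

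For the 7 genes called with the block, the size of the differences varied with the replicate number. Averaged over numbers 1 and 2, the difference between shTet1 and shScr was -1.39 for Ccng1, -1.60 for Plk2, -1.20 for Eda2r, -0.96 for Mdm2, -0.96 for Trp53inp1, -0.79 for Sesn2 and -0.58 for Gtse1. Over numbers 3 to 5 it was -0.68, -0.58, -0.39, -0.42, -0.44, -0.40 and -0.26 for the same genes in the same order. The 7 genes were chosen by the blocked fit over these same pairs, so their lower values in both sets are no separate support. The 2 sets of numbers were taken from earlier results of these data, and no test was made between them. Each of the 7 genes lay further from 0 in numbers 1 and 2 than in numbers 3 to 5. RNA was extracted by either of 2 methods according to the labels, which do not assign them to libraries and tie the replicate numbers to no batch, so the part of the method in this difference was not tested.

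**Figure D4:**
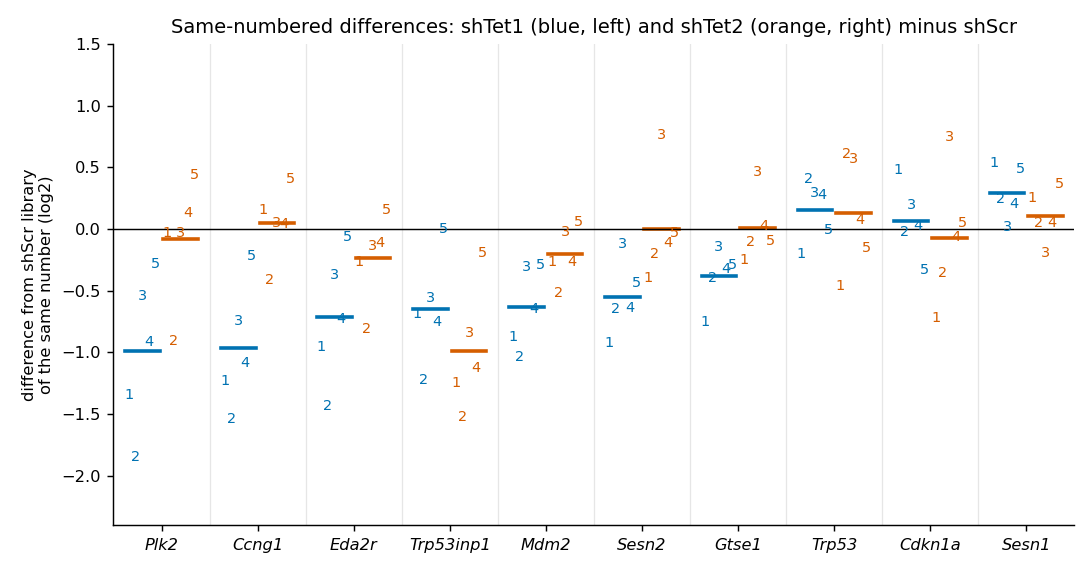
Difference of log2 level from the same-numbered shScr library for 10 p53 pathway genes, in shTet1 (blue, left) and in shTet2 (orange, right). Digits give the replicate number, horizontal bars the mean of the 5 differences, and a line marks 0. In shTet1 all 5 differences lie below 0 for the 7 genes called with the block, those of numbers 1 and 2 averaging -1.60 for Plk2. The shTet1 differences of Trp53 and Cdkn1a lie on both sides of 0 and those of Sesn1 above it. The numbers of shTet2 and shScr were not taken as pairs.

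In shTet2, the median of the pathway genes lay close to shScr, with Trp53inp1 the furthest below it and Pmaip1, Apaf1 and Mdm4 next. Of the 36 genes, 23 had a difference below 0 (43.2% of all genes did), with a median of -0.05 against 0.04 for all genes. Without shScr-2 that median was 0.01, and without shScr-5 it was -0.10. In the limma fit without the block 0 of 36 passed (0.390% of all genes), 4 were lower at an unadjusted p under 0.05 (3.58% of all genes) and 0 were higher (8%). Voom called 0 of the 36 and 57 of all 19490 genes. It placed 4 of the 36 at an unadjusted p under 0.05, where all genes were not counted. Groups that did not overlap were seen for 0 of 36 genes, lower in shTet2 (0.949% of all genes) or higher (1.75%). Centring every library on its median moved the median of all genes by -0.11 in this comparison, to -0.07. Then 33 of 36 genes lay below 0 with a median of -0.16, still with 0 called. The shift was one of all genes, and the 43.2% given above is from before centring. Of all genes called, 56.6% were higher in shTet2 before centring and 12.8% after it. In the same comparison all 9 primitive endoderm markers lay below 0, with a median difference of -0.65 and none called without the block, and their part in the differences of the pathway genes was not tested.

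Trp53inp1 measured 12.60, 13.13, 13.10, 12.68 and 12.79 in shTet2-1 to shTet2-5, against 12.99 to 14.65 in shScr. All but shScr-5 stood above every shTet2 library. The difference was -0.99 ± 0.22 (SE, n = 5), with an interval from -1.44 to -0.53, and shTet2 held 47.6% of the normalised reads of shScr. Without the block the adjusted p of 0.0546 missed the threshold (limma, Benjamini-Hochberg; exact permutation p = 0.0238), and without shScr-5 the difference was -1.20 with an adjusted p of 0.0099, within a range of 0.000575 to 0.155 over 25 alternative fits. The blocked fit called Trp53inp1 and Pmaip1 lower. Its values are given at the end, as the numbers were not taken as pairs in this comparison. Pmaip1 measured 9.61, 9.63, 10.08, 10.04 and 9.71 in shTet2, and differed from shScr by -0.49 ± 0.17 (adjusted p = 0.239, exact permutation p = 0.0397). Its lower values in both comparisons overlapped shScr through shScr-1. Apaf1 and Mdm4, the other genes at an unadjusted p under 0.05, differed by -0.49 ± 0.22 (0.381) and -0.36 ± 0.15 (0.370).

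Apart from Trp53inp1, the genes named as furthest below shScr in shTet1 had differences between -0.23 and 0.05 in shTet2. Ccng1 measured 14.17, 14.33, 14.39, 14.07 and 14.24 in shTet2, all within the range of shScr, with a difference of 0.05 ± 0.18 (SE, n = 5), an interval from -0.34 to 0.43 and an adjusted p of 0.961. Plk2 measured 11.94, 12.11, 11.92, 11.45 and 11.76 and differed by -0.08 ± 0.26, Eda2r measured 12.36, 12.41, 12.62, 12.52 and 12.24 and differed by -0.23 ± 0.18, and Mdm2 measured 12.65, 12.76, 12.75, 12.45 and 12.53 and differed by -0.21 ± 0.14. Cdkn1a, at 6.37, 6.92, 7.003, 6.63 and 6.58, differed by -0.07 ± 0.25, and Trp53, at 10.69, 10.11, 11.16, 10.41 and 10.83, by 0.13 ± 0.27. None of these passed in either fit. Gtse1 (12.15, 12.24, 12.15, 11.44 and 11.67), Ckap2 (12.52, 12.55, 12.57, 12.62 and 12.47) and Fas (6.26, 6.24, 5.54, 6.09 and 5.84) lay within 0.11 of shScr in their means. Sesn2 (11.18, 11.14, 11.14, 10.81 and 10.49) and Sesn1 (9.23, 9.11, 9.17, 8.92 and 9.62) differed by 0.0025 ± 0.21 and 0.10 ± 0.16, and Ak1, the repair gene with the smallest p in this comparison, measured 10.59, 10.73, 10.72, 10.75 and 10.89 and differed by -0.19 ± 0.14 (adjusted p = 0.689). These genes were not called in either fit. The comparisons of shTet1 and of shTet2 with shScr used the same 5 control libraries, and their differences are therefore not independent.

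The direct comparison of shTet2 with shTet1 used no shScr library in its estimates, although the fit took its variance from all 3 groups. In it 1 of 36 genes, Ccng1, was called higher in shTet2 (2.88% of all genes were) and 0 lower (1.36%). At an unadjusted p under 0.05, 9 were higher (9.32%) and 1, Ddb2, was lower (6.37%). Same-numbered libraries deviated together here as well, and with the block 9 of 36 were called higher (6.52% of all genes) and 0 lower (4.65%), namely Mdm2, Ccng1, Btg2, Gtse1, Plk2, Ckap2, Fas, Eda2r and Sesn2. The blocked count was 4, 7, 7, 3 and 8 without numbers 1, 2, 3, 4 and 5. Over all genes it was 2178 with every number and 1305, 1531, 1853, 1143 and 1636 in the same order. With the block and median centring together, 4 were higher (Ccng1, Btg2, Plk2 and Sesn2) and Ddb2 was lower. That fit called 2278 of all 19490 genes, of which 1027 (45.1%) were higher in shTet2 and the rest lower. Without the block, 67.8% of all genes called were higher in shTet2 before centring and 57.2% after it. In this comparison all 10 ESC markers lay below 0, with a median of -0.41 and 1 called (2 with the block), and 8 of 9 primitive endoderm markers did, with a median of -0.42 and 0 called (2 with the block), and their part in the differences of the pathway genes was not tested. Groups that did not overlap were seen for 4 genes higher in shTet2 (3.60% of all genes), Ccng1, Plk2, Ckap2 and Fas, and for 1 lower (2.45%), Dram1, which differed by -0.28 ± 0.17 (adjusted p = 0.481, exact permutation p = 0.00794).

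Ccng1 was 1.01 ± 0.18 higher in shTet2 than in shTet1 (SE, n = 5), with an interval from 0.63 to 1.40 and every shTet2 library above every shTet1 library. The adjusted p was 0.00304 without the block and 0.000246 with it (limma, Benjamini-Hochberg; exact permutation p = 0.00794), and the call held in all 25 alternative fits, with adjusted p from 0.000157 to 0.0163. Plk2 differed by 0.91 ± 0.26, with an adjusted p of 0.0595, and 0.00303 with the block, within a range of 0.00259 to 0.159; without shTet1-3 and without the block it was 1.02 (0.0484). Ckap2 differed by 0.49 ± 0.15 (0.0668, and 0.0179 with the block, within a range of 0.0141 to 0.204), and without shTet1-5 it was 0.55 (0.0494). For both genes the lowest shTet2 library stood above the highest shTet1 library, and the exact permutation p was 0.00794. The blocked call of Plk2 held without each replicate number, and that of Ckap2 did not hold without number 1 (0.0907) or number 4 (0.123).

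Btg2, a gene not called in either comparison with shScr, measured 10.96, 10.99, 10.39, 10.36 and 10.40 in shTet2 and 10.05, 10.49, 10.16, 9.67 and 9.79 in shTet1. The groups overlapped through shTet1-2, and shTet2 was the higher in all 5 pairs. The difference was 0.59 ± 0.21, with an adjusted p of 0.139 without the block and 0.00322 with it, within a range of 0.00234 to 0.304, and the blocked call held without each number. Fas differed by 0.59 ± 0.20 (0.107, and 0.0448 with the block), Sesn2 by 0.56 ± 0.21 (0.179, and 0.0111), Eda2r by 0.48 ± 0.18 (0.161, and 0.0452), Mdm2 by 0.43 ± 0.14 (0.112, and 0.0182) and Gtse1 by 0.39 ± 0.21 (0.397, and 0.0244). These blocked calls were lost without some numbers: without number 4 the adjusted p was 0.134 for Fas, 0.0576 for Sesn2, 0.186 for Eda2r, 0.0775 for Mdm2 and 0.0954 for Gtse1, and without number 1 it was 0.0725 for Fas, 0.158 for Eda2r, 0.0841 for Mdm2 and 0.0690 for Gtse1. Without number 2 it was 0.140 for Fas, 0.0545 for Eda2r and 0.0562 for Gtse1, without number 3 it was 0.0536 for Eda2r and 0.0544 for Gtse1, and without number 5 it was 0.105 for Fas. Trp53inp1 lay further below shScr in shTet2 than in shTet1, as did Mdm4, but shTet2 and shTet1 differed by -0.34 ± 0.22 for Trp53inp1 (0.508, and 0.156 with the block) and by -0.16 ± 0.15 for Mdm4 (0.726, and 0.374).

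Genes around the pathway were read from 3 further lists. Of 20 regulators of p53 and damage kinases, 15 lay below 0 in shTet1 against shScr, with a median of -0.12 and 0 called in either fit, and 10 lay below 0 in shTet2, with a median of -0.04 and 0 called without the block. Of 30 other p53 targets, 29 were tested and 21 lay below 0 in shTet1 (47.6% of all genes did), with a median of -0.17 and 0 called without the block. In shTet2 against shScr 11 of the 29 lay below 0 (43.2% of all genes did) and 18 above it, with a median of 0.06 and 0 called without the block. With the block 3 of the 29 fell in shTet1 (2.26% of all genes did): the matrix gene Thbs1 by 1.19 (adjusted p = 0.0108), the growth factor binding gene Igfbp3 by 0.47 (0.0370) and the costimulatory gene Cd80 by 0.80 (0.00693). Against shTet1, shTet2 was higher without the block for Igfbp3 (0.93, adjusted p = 0.00411), Cd80 (1.13, 0.00436) and the decoy receptor gene Tnfrsf23 (0.72, 0.00585) and lower for the stress gene Gadd45a (-0.87, 0.00362), and with the block 7 of the 29 were higher (6.52% of all genes) and 2 lower (4.65%). Tnfrsf23 and Gadd45a are named although the rule for names did not take them, and were chosen after their values were seen. Of 20 mitotic genes that are lowered when p21 acts through the DREAM complex, 13 lay above 0 in shTet1 against shScr, with a median of 0.07 and 0 called in either fit, and 8 lay above 0 in shTet2, with a median of -0.09 and 0 called. Between shTet2 and shTet1, 1 of the 20 was lower in shTet2 without the block, Nek2 (-0.46, limma adjusted p = 0.0494; 1.36% of all genes). With the block Nek2 (0.0102) and Chek1 (-0.42, 0.0152) were lower (4.65% of all genes) and 0 were higher (6.52%). Chek1 is also among the 20 regulators, of which Chek1 and Rfwd2 (-0.33, 0.0498) were lower with the block and 0 higher. Against shScr, the median of the other targets was thus below that of all genes in shTet1 and above it in shTet2, and that of the mitotic list lay within 0.1 of 0 in both.

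**Figure D5:**
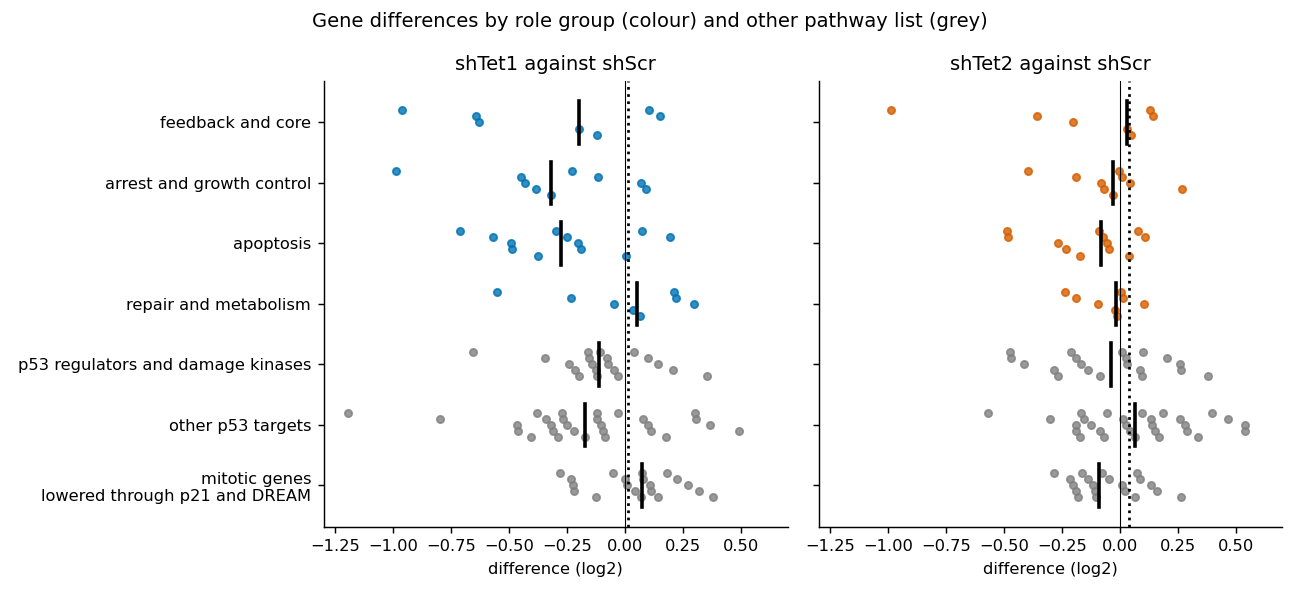
Differences of log2 level against shScr for the 4 role groups of p53 pathway genes and for the 3 further lists, in shTet1 and in shTet2, with a point per gene, a black bar for the median of each list and a dotted line for the median of all genes tested. In shTet1 the arrest genes have the lowest median (-0.32) and the mitotic genes the highest (0.07), and in shTet2 all medians lie between -0.09 and 0.06.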

How the data were processed

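RNA-seq reads of 15 libraries were trimmed by the authors with Trim Galore 0.3.3, aligned to mm9 with TopHat2 2.0.9 at 1 location per read, counted per gene in Seqmonk and transformed in DESeq2, as given in the submitters' processing notes and the study's methods. The authors deposited variance-stabilised values on a log2-like scale, whose minimum of 4.25 marks genes without reads. When the transformation was inverted, 100% of values came out as whole reads (tolerance 0.1), which were used for depth, reads per kb and one alternative test. The repeat table was not used here. Reads of overlapping genes, and 50-mers shared with other genes (at most 2.02% of a pathway gene, for Tnfrsf10b), are uncertain in their assignment.

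Group differences were estimated from the deposited values (limma 3.58.1, R 4.3.3) in a single model of all 15 libraries that held the group alone, with an eBayes variance trend and a two-sided test. Genes above the minimum in at least 5 libraries (19490) were tested, with Benjamini-Hochberg adjustment over all of them and a threshold of 0.05. Single genes were also compared by two-sided exact permutation tests of 5 against 5 libraries, whose smallest p is 0.00794. Scans and figures used python 3.11.15 with numpy 2.4.6, pandas 2.3.3 and matplotlib 3.10.9. The scripts were tested on simulated data. The alternatives were other filters on low values, median centring, quantile normalisation, no variance trend, array weights, only the groups compared, voom on recovered reads, each library left out, and the replicate number as a block. The block with each number left out, and the block with median centring, were chosen after seeing the data.

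Same-numbered libraries deviated together between shTet1 and shScr (correlation of deviations from the group means 0.374 to 0.657 over 5 pairs, with 4 of 5 libraries closest to their own number) and between shTet2 and shTet1 (0.330 to 0.731, with 4 of 5), so the blocked values are given for these comparisons. Libraries of different numbers correlated at -0.480 to 0.577 and at -0.488 to 0.523 in these comparisons, so the 2 ranges overlapped. Between shTet2 and shScr the same-numbered pairs ran from 0.0079 to 0.769, with 3 of 5 libraries closest to their own number. Different numbers ran from -0.496 to 0.462. Because 1 pair was at 0.0079, the numbers were not taken as pairs there. The pairing comes from the values and the numbers of the labels, which name no shared batch. Correlations of libraries within groups lay between 0.969 and 0.994, and no library was a copy of another (chi-square per degree of freedom at least 22.6). The labels do not say that replicates came from separate cultures, so p-values measure the spread between these libraries, which may be technical.

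The members and gene lists were chosen with earlier results of these data known. Full values were given for Trp53, Mdm2 and Cdkn1a, for genes called in either fit (at most 3 per role and comparison) and for the genes with the smallest p in each role (2 in shTet1, 1 in shTet2). Other genes were given by difference and range, and at most 3 genes of each further list by name.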

Additional observations from a re-analysis of the deposited data

Results flagged for a closer look

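Pml measured 11.35 in shTet2-3, and the gap to the nearest of the other shTet2 libraries was 0.722 of the range of the group, above Dixon's critical value of 0.71 for 5 samples. Of the 108 combinations of gene and group tested, 1 passed, where chance flags about 1 in 20. Pml differed between shTet2 and shScr by 0.14 ± 0.24 (SE, n = 5; adjusted p = 0.890, limma).

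For Ccng1, the Tet1 and Tet2 hairpins differed in their effect when tested directly. The level was higher by 1.01 ± 0.18 in shTet2 than in shTet1 (SE, n = 5; adjusted p = 0.00304, limma with Benjamini-Hochberg adjustment), and higher in 5 of 5 same-numbered pairs. The differences of shTet1 and shTet2 from shScr were -0.96 and 0.05.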

How the results depend on the processing

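Ccng1 in shTet2 against shTet1 was called in every alternative run, and most other calls among the 36 genes came with the replicate block. The median difference of the 36 genes ran from -0.33 to -0.12 in shTet1 against shScr and from -0.10 to 0.01 in shTet2 against shScr with a library left out, and was 0.0067 in the latter with array weights and 0.0012 with the block without number 2. In shTet1 against shScr the count of 0 became 1 with the filter on all 15 libraries, quantile normalisation, array weights or voom, 0 to 1 with a library left out, 7 with the replicate block, 2, 2, 7, 1 and 9 with the block without numbers 1 to 5, and 7 with the block and median centring. In shTet2 against shScr the count of 0 became 1 with array weights, 0 to 1 with a library left out, 2 with the replicate block (Trp53inp1, adjusted p = 0.00225, and Pmaip1, 0.0403), 1, 1, 3, 1 and 1 without numbers 1 to 5, and 4 with the block and centring. In shTet2 against shTet1 the count of 1 became 3 with only the 2 groups compared or quantile normalisation, 4 with array weights, 1 to 2 with a library left out, 9 with the replicate block, 4, 7, 7, 3 and 8 without numbers 1 to 5, and 5 with the block and centring. Over all genes the block moved the counts from 14, 76 and 827 to 935, 840 and 2178, and centring with the block moved the share of higher calls in shTet1 against shScr from 52.9% to 41.2%.

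Over 45 results for named genes and 1125 fits, 963 kept direction and side of the threshold, 94 came to pass it, 0 lost it, and 68 changed sign, none of them called in either fit. In the fit with the group alone, only Ccng1 in shTet2 against shTet1 was called. No other result could lose a call, so the count of 0 says nothing about the stability of those results. In shTet1 against shScr, Trp53 was -0.050 with array weights and -0.10 to 0.34 with a library left out, Cdkn1a was -0.036 with the block without number 1 and -0.12 to 0.23 with a library left out, and Ak1 ran from -0.0054 to 0.20. In shTet2 against shScr with a library left out, Trp53 ran from -0.13 to 0.29, Ccng1 from -0.041 to 0.18, Cdkn1a from -0.20 to 0.055, Gtse1 from -0.12 to 0.13, Plk2 from -0.23 to 0.19, Ckap2 from -0.041 to 0.16, Fas from -0.071 to 0.22, Sesn1 from -0.0016 to 0.17 and Sesn2 from -0.14 to 0.16. With median centring, with or without the replicate block, Ccng1 was at -0.060, Gtse1 at -0.10, Ckap2 at -0.067, Fas at -0.0013, Sesn1 at -0.0059 and Sesn2 at -0.10. With array weights Trp53 was at -0.11, Cdkn1a at 0.045 and Plk2 at 0.075, and with quantile normalisation Plk2 was at 0.014 and Fas at -0.050. With the replicate block, leaving out number 1 put Cdkn1a at 0.093, Ckap2 at -0.0058 and Fas at -0.14, leaving out number 2 put Cdkn1a at 0.000298 and Plk2 at 0.13, leaving out number 3 put Gtse1 at -0.11 and Sesn2 at -0.19, and leaving out number 5 put Ccng1 at -0.042 and Ckap2 at -0.022. In shTet2 against shTet1, Trp53 was at 0.036 with quantile normalisation, at 0.034, 0.021 and 0.0061 with the block without numbers 1, 4 and 5, and at -0.21 to 0.11 with a library left out, and Cdkn1a was at 0.13 with the block without number 1 and at -0.30 to 0.046 with a library left out. The causes were not tested.

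Between shTet2 and shScr the replicate numbers were not taken as pairs, and there the blocked values are given only here. Among the 36 genes the block changed the calls of Trp53inp1, which held without each number (adjusted p from 0.000575 to 0.0307), and Pmaip1. These were 2 of 36 genes called lower (1.52% of all genes) and 0 higher (2.79%). Of the markers and further lists the block brought calls for Pdgfra, Dab2, Sox7, Thy1, Rfwd2, Sirt1, Gadd45a and Igfbp3. Depth limits Fas, Gdf15, Dram1 and Cdkn1a most, since their lowest libraries held 8, 3, 22 and 36 reads.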
